A study of Drosophila melanogaster with 27 samples.

Results

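The 8 Drosophila melanogaster genes described here are slow, bumpel, PLCXD, Zasp67, Sgp, Alp2, PolH and mu2. They were picked because their levels shifted alike in 3 groups of deficiency heterozygotes against wild type, and those 3 groups share an Oregon R parent that wild type lacks. The genes were thus chosen by the differences of these 3 groups from wild type, which are given below as a description, with no test. Each gene was read by 1 probe set that the array annotation assigns to that gene alone, so that 8 probe sets of 18952 are described, for 8 of 11941 genes. Sgp is an exception to the shared shift, and Alp2 was low in all 8 groups other than wild type. The other 6 genes also stood off wild type without overlap, to the same side, in Df(2L)J-H/+ haplo 4th, a group without an Oregon R parent. The wild type arrays there are those used to choose the genes, and the share of all probe sets that did the same was not counted. The name of Oregon R marker tells only how the genes were chosen. These data cannot test it, since no array holds Oregon R flies without a deficiency.

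The study asked how genes present in 1 or 3 copies are expressed, and measured RNA of whole adult females no more than a day old, 10 females per replicate and 3 replicates per group, on Affymetrix Drosophila version 2 arrays. The 3 deficiency groups, which are Df(2L)J-H/+, then Df(2L)ED4651/+ and then Df(3L)4470/+, carried a deletion on 1 of 2 homologues and came from crosses of a balanced deficiency stock to Oregon R, a laboratory wild type strain. The pof-mutant triplo 4th group had 3 copies of chromosome 4 and came from a stock with both a pof allele over a balancer and the compound chromosome 4 C(4)RM, crossed to the homozygous pof stock. The pof-mutant group came from its own stock, with 2 copies of chromosome 4, and Pof encodes a protein that binds this chromosome. The Dp(2;2)Cam3/+ triplo 4th group carried a duplication on 2L and 3 copies of chromosome 4, and the Df(2L)J-H/+ haplo 4th group a deficiency on 2L and 1 copy. Both came from a balanced stock crossed to a C(4)RM stock, and were told from other progeny as non-Minute flies for the duplication and as Minute flies for the deficiency. The haplo 4th group had 1 copy of chromosome 4 and came from the wild type strain crossed to a C(4)RM stock, and wild type was the strain carrying the markers y and w in its own stock. In every comparison with wild type the deficiency, the deficiency stock and the Oregon R parent differ together and cannot be told apart, since no array holds Oregon R flies without a deficiency. The descriptions name the 3L deficiency in several ways, and its title is used here.

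Values are log2 levels as deposited, plus a constant per array that brings its mean over 7386 expressed genes (a wild type mean above 6) to that of wild type, and they are called centred log2 levels. A difference of 1 is therefore 2-fold. The constants ran from -0.05 to 0.39. Array means lay between 6.32 and 6.39 before centring, and correlations between arrays of a group from 0.90 to 0.997, the lowest in the groups labelled pof-mutant and pof-mutant triplo 4th. Pof itself was read by a probe set that averaged 7.82 ± 1.06 in pof-mutant triplo 4th, 9.69 ± 1.17 in pof-mutant and 7.68 ± 0.23 in wild type arrays (SD, n = 3 each). It is not lower under these labels, and whether it lies in the altered part of the gene is not given in the sources used here, so the groups are named as their labels name them. Of 11 listed genes of male tissues 10 were measured, and 0 had a mean above 6. Microarrays of whole flies cannot tell a smaller share of a tissue in the body from less RNA per cell.

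The 8 genes belong to unrelated processes. Slow (Slowdown) is a secreted protein that modulates integrin-mediated adhesion where muscles join tendon cells. Bumpel is a sodium-solute symporter of the family that takes up sugars and other small solutes in glia, and PLCXD is a phospholipase C-like enzyme of phosphoinositide breakdown. Zasp67 belongs to the Zasp proteins, which anchor actin filaments at the Z-discs of muscle. Alp2 is an alkaline phosphatase. PolH is the DNA polymerase eta that copies past damaged bases, and Mu2 is a chromatin protein of the damage response and of chromosome ends, known from its action in oocytes. No role is given for Sgp. Laboratory strains differ at many places in the genome, and a hybrid between strains can differ from both in how much RNA a gene gives.

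Among the 4 genes that were higher in the deficiency groups, slow had the largest difference. Its centred log2 level was 11.34, 10.46 and 10.97 in Df(2L)J-H/+, 9.91, 10.67 and 10.44 in Df(2L)ED4651/+ arrays and 10.51, 10.89 and 11.19 in Df(3L)4470/+ arrays, against 7.83, 8.11 and 6.95 in wild type. All 9 deficiency arrays lay above the 3 wild type arrays, by 3.29, 2.71 and 3.23 in the group means, which is 9.81, 6.54 and 9.39-fold. The levels were 9.49, 5.93 and 9.42 in pof-mutant triplo 4th, 8.48, 5.10 and 9.05 in pof-mutant and 9.74, 8.37 and 6.44 in Dp(2;2)Cam3/+ triplo 4th arrays, groups whose arrays overlap those of wild type. They were 10.03, 9.08 and 9.75 in Df(2L)J-H/+ haplo 4th arrays, above wild type without overlap, and 7.97, 8.26 and 9.63 in haplo 4th arrays, which overlap it. The single array outside the Oregon R crosses that reached their range was Df(2L)J-H/+ haplo 4th replicate 1.

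The symporter gene bumpel had nearly the same level in each of the 3 crosses. It read 9.28, 9.22 and 9.21 in Df(2L)J-H/+, 9.24, 9.36 and 9.02 in Df(2L)ED4651/+ arrays and 8.86, 9.64 and 9.12 in Df(3L)4470/+ arrays, against 6.67, 6.86 and 6.18 in wild type. The group means were 2.67, 2.64 and 2.64 above wild type, or 6.36, 6.22 and 6.22-fold. Dp(2;2)Cam3/+ triplo 4th arrays had 8.99, 8.20 and 6.89, Df(2L)J-H/+ haplo 4th arrays 7.64, 7.61 and 8.05 and haplo 4th arrays 7.41, 7.37 and 7.80. These 3 groups stood between the Oregon R crosses and wild type and overlapped neither, except that Dp(2;2)Cam3/+ triplo 4th replicate 1 reached the range of the crosses. In pof-mutant triplo 4th the levels were 7.99, 5.14 and 7.52 and in pof-mutant 5.87, 4.82 and 7.41, on both sides of wild type.

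PLCXD had levels of 11.47, 10.89 and 11.33 in Df(2L)J-H/+, 10.30, 10.91 and 10.62 in Df(2L)ED4651/+ arrays and 10.41, 11.01 and 10.91 in Df(3L)4470/+ arrays, against 8.48, 8.97 and 8.18 in wild type. Its means were 2.69, 2.07 and 2.23 above wild type, or 6.44, 4.19 and 4.69-fold. Of the 4 higher genes it separated the crosses least well, because 3 of the 18 other arrays reached their range. Those were Df(2L)J-H/+ haplo 4th replicates 1 and 3, at 10.60 and 10.34, and haplo 4th replicate 3, at 10.30. The remaining haplo 4th arrays had 9.08 and 9.01 and the remaining Df(2L)J-H/+ haplo 4th array 9.84. The pof-mutant triplo 4th arrays had 9.76, 7.59 and 9.67, the pof-mutant arrays 8.71, 7.27 and 9.34 and the Dp(2;2)Cam3/+ triplo 4th arrays 10.19, 9.03 and 8.12, all 3 groups overlapping wild type.

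Zasp67 was 10.18, 10.13 and 10.03 in Df(2L)J-H/+, 9.93, 9.97 and 9.52 in Df(2L)ED4651/+ arrays and 9.66, 10.14 and 10.06 in Df(3L)4470/+ arrays, against 7.63, 7.68 and 6.83 in wild type. The means were 2.73, 2.43 and 2.57 above wild type, or 6.64, 5.37 and 5.95-fold. The groups with a C(4)RM parent and a functional Pof gene were intermediate, at 9.52, 8.72 and 7.75 in Dp(2;2)Cam3/+ triplo 4th, 8.75, 9.18 and 9.04 in Df(2L)J-H/+ haplo 4th arrays and 8.46, 8.37 and 8.89 in haplo 4th, all above the wild type arrays. Dp(2;2)Cam3/+ triplo 4th replicate 1 was level with the lowest array of the crosses. The lowest means were those of arrays labelled pof-mutant triplo 4th, with 8.28, 4.91 and 7.40, and pof-mutant, with 5.65, 4.86 and 7.37, and both groups overlapped wild type.

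**Figure D1:**
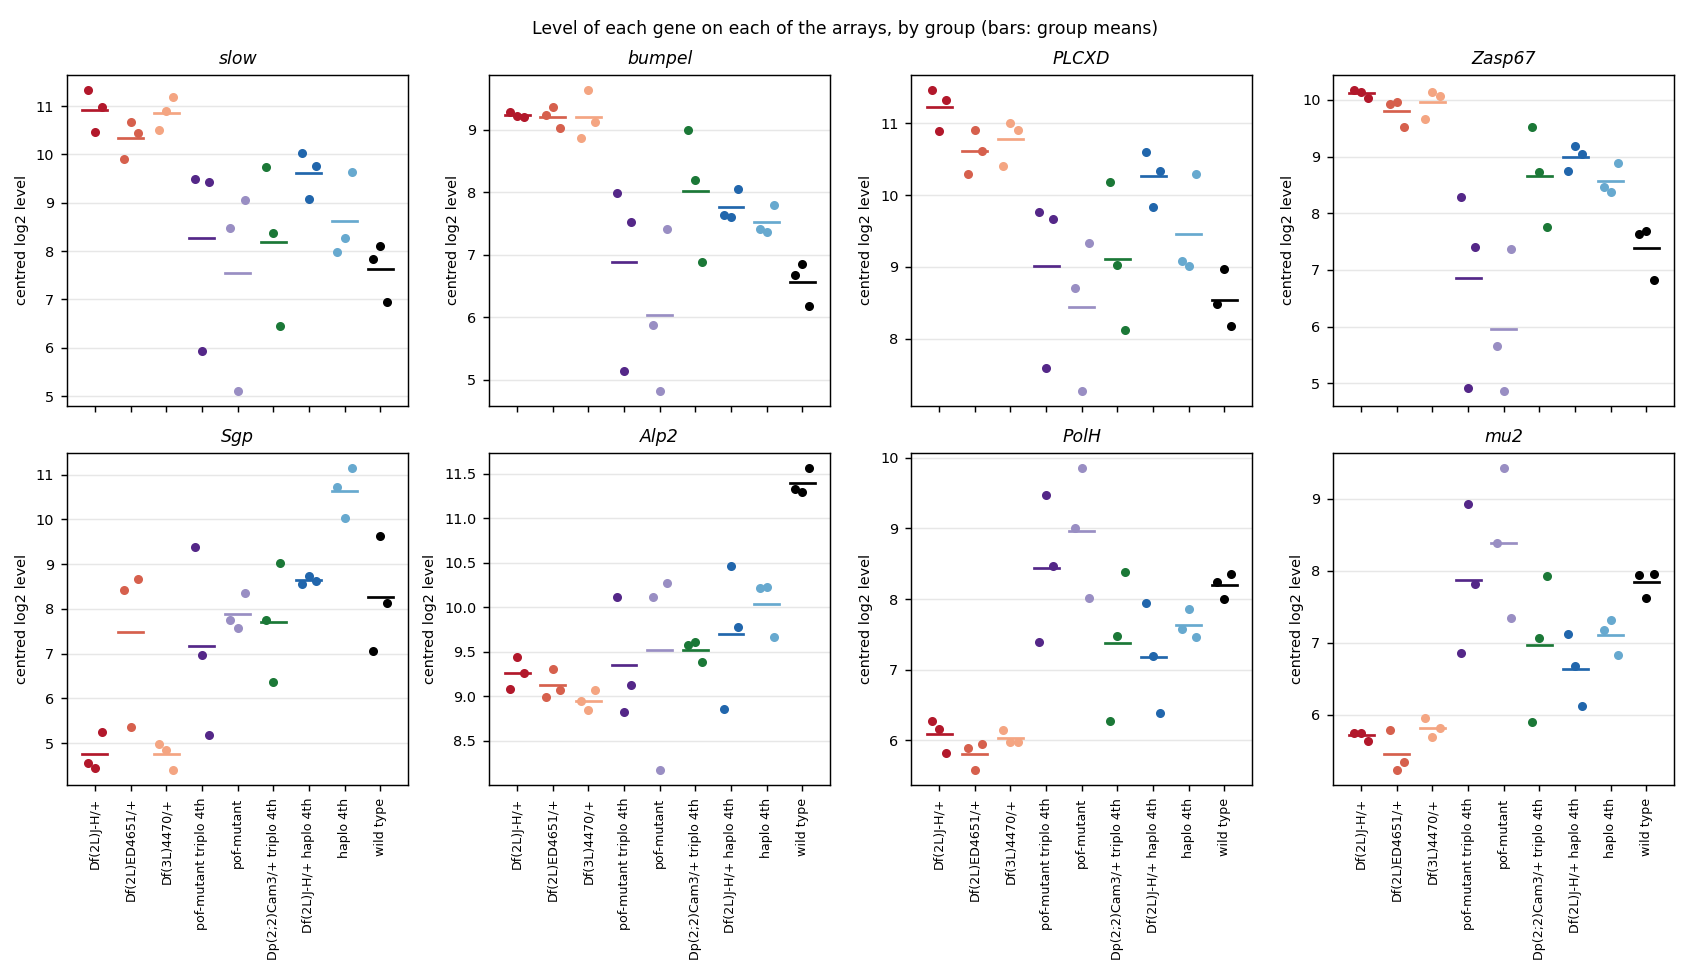
Centred log2 level (y axes) of each of the 8 genes on every array, 3 points per group, with bars at the group means and groups in the order of the text. In 6 panels the 3 groups on the left stand together and away from wild type on the right, in the Sgp panel 2 arrays of Df(2L)ED4651/+ do not, and in the Alp2 panel wild type alone stands apart.

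PolH and mu2, the pair of genes of the DNA damage response, were both lower in the 3 crosses. PolH had 6.27, 6.16 and 5.82 in Df(2L)J-H/+, 5.89, 5.58 and 5.95 in Df(2L)ED4651/+ arrays and 6.14, 5.97 and 5.98 in Df(3L)4470/+ arrays, against 8.24, 8.0 and 8.36 in wild type. The differences of the means were -2.11, -2.39 and -2.17, or 4.33, 5.25 and 4.50-fold. The centred levels in the crosses lie about 6, the bound that the study set on wild type levels, which PolH and mu2 exceed in wild type. The mu2 arrays showed 5.75, 5.75 and 5.63 in Df(2L)J-H/+, 5.78, 5.23 and 5.34 in Df(2L)ED4651/+ arrays and 5.95, 5.69 and 5.82 in Df(3L)4470/+, against 7.94, 7.62 and 7.95 in wild type, 4.37, 5.23 and 4.05-fold lower. All 9 arrays of the crosses lay under 6 for mu2. For both genes the Df(2L)J-H/+ haplo 4th and haplo 4th arrays lay between the crosses and wild type without touching either, at 7.95, 7.20 and 6.39 and at 7.57, 7.86 and 7.47 for PolH. For mu2 the same 2 groups had 7.12, 6.68 and 6.12 and 7.17, 7.32 and 6.83. The highest means carried the labels pof-mutant triplo 4th, with 7.39, 9.48 and 8.47 for PolH and 6.86, 8.93 and 7.82 for mu2, and pof-mutant, with 9.01, 9.85 and 8.02 for PolH and 8.39, 9.42 and 7.34 for mu2. Dp(2;2)Cam3/+ triplo 4th arrays spread widely, over 6.27, 7.48 and 8.39 for PolH and 5.89, 7.06 and 7.93 for mu2, and its replicate 1 alone among the 18 other arrays fell to the range of the crosses for both genes.

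Alp2 was lower in the crosses, and in every other group as well. It had 9.08, 9.44 and 9.26 in Df(2L)J-H/+, 8.99, 9.31 and 9.07 in Df(2L)ED4651/+ arrays and 8.94, 8.84 and 9.07 in Df(3L)4470/+ arrays, against 11.33, 11.30 and 11.56 in wild type. The differences of the means were -2.14, -2.27 and -2.45, or 4.40, 4.83 and 5.46-fold. Outside the crosses it had 10.11, 8.82 and 9.12 in pof-mutant triplo 4th, 10.12, 8.17 and 10.27 in pof-mutant, 9.58, 9.61 and 9.38 in Dp(2;2)Cam3/+ triplo 4th, 8.86, 10.46 and 9.78 in Df(2L)J-H/+ haplo 4th arrays and 10.22, 10.23 and 9.66 in haplo 4th arrays. Every array of the 8 other groups lay below the 3 wild type arrays, and 5 arrays outside the crosses lay as low as the crosses. In all, 28 probe sets (0.148%) had all 8 other groups below wild type without overlap in this way, and 90 (0.475%) had them above. The haplo 4th group, with the wild type strain as a parent, had the mean nearest to wild type, at a difference of -1.36.

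Sgp did not follow the rule in 1 of the 3 crosses. It was low in Df(2L)J-H/+, with 4.56, 4.44 and 5.25, and in Df(3L)4470/+, with 4.99, 4.85 and 4.40, against 7.06, 9.64 and 8.13 in wild type, differences of -3.52 and -3.53 in the means. In Df(2L)ED4651/+ the arrays had 8.43, 5.37 and 8.67, so that only replicate 2 was below the wild type arrays, and the mean difference was -0.79. Levels were 9.38, 6.96 and 5.19 in pof-mutant triplo 4th, 7.75, 7.57 and 8.36 in pof-mutant, 7.75, 6.36 and 9.02 in Dp(2;2)Cam3/+ triplo 4th and 8.56, 8.73 and 8.62 in Df(2L)J-H/+ haplo 4th arrays. The highest were those of haplo 4th, 10.73, 10.04 and 11.14, above every other array. Within groups the replicates of Sgp spread unevenly, with an SD of 1.84 in Df(2L)ED4651/+, 2.10 in pof-mutant triplo 4th and 1.29 in wild type (n = 3 each), beside 0.09 in Df(2L)J-H/+ haplo 4th.

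For 7 of the 8 genes all 3 crosses stood off wild type without overlap, Sgp being the exception. The choice of genes fixes this count, and the same separation was common among all probe sets, 41.2% of which lay higher and 10.1% lower in all 3 crosses. The median difference of the 3 crosses from wild type was 0.34, 0.37 and 0.36 for probe sets with a mean of 6 or below and 0.04, 0.06 and 0.03 for those above 6. Among probe sets with a mean above 6, as all 8 genes have, 24.4% were higher and 19.9% lower, and without centring 14.7% and 18.3% of all probe sets. For single crosses limma (adjusted p under 0.05) called 36.7% of all probe sets in Df(2L)J-H/+ (31.7% higher, 4.98% lower), 42.7% in Df(2L)ED4651/+ (36.6% higher, 6.12% lower) and 38% in Df(3L)4470/+ (33.8% higher, 4.28% lower). Among probe sets with a mean above 6 the calls were 14.2% higher and 7.04% lower, 15.7% and 9.11%, and 12% and 5.41% in the same order of crosses. Without centring they were 9.32% higher and 8.58% lower, 11.2% and 10.2%, and 8.45% and 7.78% of all probe sets. A stricter separation, of all 9 arrays of the crosses from all 18 others, was met by 0 of the 8 genes, and by 2.63% of all probe sets above and 0.528% below. For slow, bumpel, Zasp67, PolH and mu2 17 of the 18 other arrays stood apart from the crosses, for PLCXD 15, for Alp2 13 and for Sgp 7.

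**Figure D2:**
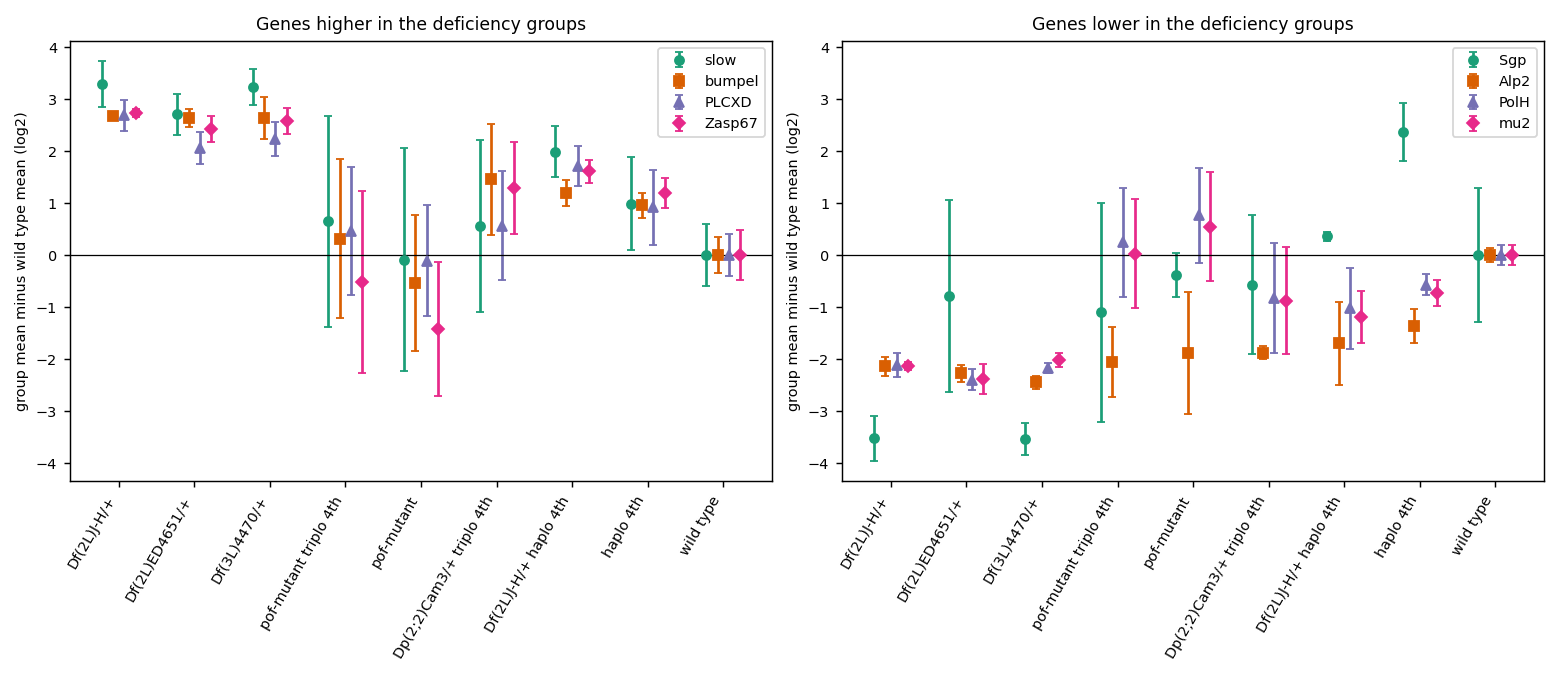
Mean of each group minus the wild type mean (y axes, log2) for the 4 genes higher and the 4 genes lower in the deficiency groups, with bars of 1 SD over the 3 arrays of the group. The 3 deficiency groups lie at 2.07 to 3.29 for slow, bumpel, PLCXD and Zasp67 and at -2.02 to -2.45 for Alp2, PolH and mu2, while Sgp has -3.52, -0.79 and -3.53.

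In the order of group means the crosses came together at an end for 7 genes. For slow, PLCXD and Zasp67 the order was Df(2L)J-H/+, Df(3L)4470/+, Df(2L)ED4651/+, followed by Df(2L)J-H/+ haplo 4th, and for bumpel the 3 crosses had means of 9.24, 9.21 and 9.21, followed by Dp(2;2)Cam3/+ triplo 4th at 8.03. Neighbours in these orders mostly overlapped. For slow, bumpel and PLCXD all 8 neighbouring pairs of groups did, and for Zasp67 6 of 8, the gaps falling between Df(2L)ED4651/+ and Df(2L)J-H/+ haplo 4th and between haplo 4th and wild type. PolH and mu2 shared an order from pof-mutant through pof-mutant triplo 4th, wild type, haplo 4th, Dp(2;2)Cam3/+ triplo 4th and Df(2L)J-H/+ haplo 4th to the crosses, with gaps in both genes between wild type and haplo 4th and between Df(2L)J-H/+ haplo 4th and the crosses, and for PolH a further gap between the Df(3L)4470/+ and Df(2L)ED4651/+ arrays. For Alp2 the single gap lay between wild type and haplo 4th, and for Sgp between haplo 4th and Df(2L)J-H/+ haplo 4th.

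The 15 arrays of the 5 groups that took no part in the choice allow tests. Their means are free of the choice, but the spread was estimated from all 27 arrays. The tests are therefore not fully independent of the arrays used to choose the genes. They ask whether the genes move with an aneuploidy or with the pof mutation in flies that have no Oregon R parent. With limma's test over all probe sets and Benjamini-Hochberg adjustment, 0 of the 8 genes passed in each of 4 contrasts, and the count stayed 0 when the 15 arrays were fitted alone. The contrast of Df(2L)J-H/+ haplo 4th with haplo 4th, in which both groups have a C(4)RM parent, had 0.791% of all probe sets called (0.422% higher, 0.369% lower). Sgp alone had an unadjusted p under 0.05 there, with a mean of 8.64 against 10.64, a difference of -2.0 (SE 0.88, adjusted p = 0.3245 by limma). The groups of this contrast differ in the deficiency and in the stock of the other parent, which cannot be told apart, and the Df(2L)J-H/+ cross shares both. The other genes had differences of 1.00 (SE 0.93) for slow, 0.24 (SE 0.60) for bumpel, 0.80 (SE 0.56) for PLCXD and 0.42 (SE 0.62) for Zasp67, and of -0.34 (SE 0.42) for Alp2, -0.45 (SE 0.50) for PolH and -0.46 (SE 0.49) for mu2, none of which passed. Their signs are those of the crosses against wild type, and the differences were not compared with those by a test.

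Between Dp(2;2)Cam3/+ triplo 4th and haplo 4th, where 1.29% of all probe sets were called (0.67% higher, 0.623% lower), Sgp had 7.71 against 10.64, a difference of -2.93 (SE 0.88, adjusted p = 0.1361 by limma), all 3 duplication arrays below the 3 haplo 4th arrays. By gene order Sgp lies inside the run on 2L (Ugt37B1 through LManVI, 202 genes called expressed) whose raised levels mark the duplication, and the other 7 genes lie outside it. None of the 8 lies in the runs that mark the deficiencies. Against haplo 4th the other 7 genes differed by -0.51 to 0.50 in Dp(2;2)Cam3/+ triplo 4th, with adjusted p of 1.

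Between pof-mutant triplo 4th and pof-mutant 2 probe sets or 0.0106% were called, both higher. The 4 genes higher in the crosses differed by 0.74 (slow, SE 0.93), 0.85 (bumpel, SE 0.60), 0.57 (PLCXD, SE 0.56) and 0.90 (Zasp67, SE 0.62). The others differed by -0.72 (Sgp, SE 0.88), -0.175 (Alp2, SE 0.42), -0.515 (PolH, SE 0.50) and -0.52 (mu2, SE 0.49). Of the 8 genes 0 had an unadjusted p under 0.05 by limma. Between pof-mutant triplo 4th and Dp(2;2)Cam3/+ triplo 4th, with 2.05% called (0.67% higher, 1.38% lower), Zasp67 had 6.86 against 8.66, a difference of -1.80 (SE 0.62, adjusted p = 0.1704 by limma), and PolH 8.45 against 7.38, a difference of 1.07 (SE 0.50, adjusted p = 0.3554 by limma), both with an unadjusted p under 0.05. Zasp67 passed in this contrast, at -2.51 (adjusted p = 0.02035 by limma), when pof-mutant triplo 4th replicate 1, its array with the highest level, was left out.

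Over the 5 groups together, limma's moderated F from the fit of all 27 arrays called 4 of the 8 genes, beside 25.5% of all probe sets. They were Zasp67 (adjusted p = 0.003594), Sgp (0.03562), PolH (0.03807) and mu2 (0.04625). The others had adjusted p of 0.07646 (bumpel), 0.1227 (PLCXD), 0.4064 (slow) and 0.6453 (Alp2). The count was 1, Zasp67, without pof-mutant replicate 1 or 2, when replicate 2 or 3 of Df(2L)J-H/+ haplo 4th was left out, and without haplo 4th replicate 1 or 3. It was 2 without pof-mutant triplo 4th replicate 3, Dp(2;2)Cam3/+ triplo 4th replicate 2 or haplo 4th replicate 2, and 0 when the 15 arrays were fitted alone, where Zasp67 had an adjusted p of 0.08853. With replicate number as a block mu2 had an adjusted p of 0.0545 and was not called.

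The level of female germline genes also differed between the groups, and its part in the results was examined only by the covariate given below. A list of 10 such genes (among them vas, nos and osk, which act in egg formation), of which 9 were measured and 8 had a mean above 6, averaged 8.21, 8.28 and 8.45 in Df(2L)J-H/+, 8.28, 7.68 and 7.95 in Df(2L)ED4651/+ arrays and 8.87, 8.08 and 8.48 in Df(3L)4470/+ arrays, against 9.50, 9.31 and 9.64 in wild type. All arrays of the crosses lay below those of wild type. It averaged 8.59, 10.31 and 9.53 in pof-mutant triplo 4th, 9.91, 10.48 and 8.95 in pof-mutant, 7.58, 8.75 and 9.45 in Dp(2;2)Cam3/+ triplo 4th, 9.0, 8.58 and 7.49 in Df(2L)J-H/+ haplo 4th arrays and 8.67, 8.97 and 8.58 in haplo 4th arrays. Within Dp(2;2)Cam3/+ triplo 4th, PolH and mu2 were lowest and bumpel, Zasp67, slow and PLCXD highest on the array with the lowest germline level, and the opposite held for the array with the highest. In Df(2L)J-H/+ haplo 4th PolH and mu2 were likewise lowest on the array with the lowest germline level, but slow and PLCXD were highest on the array with the highest. The replicates 2 of both groups labelled pof-mutant and pof-mutant triplo 4th had the highest germline levels and the lowest levels of slow, bumpel, PLCXD and Zasp67 of all arrays.

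**Figure D3:**
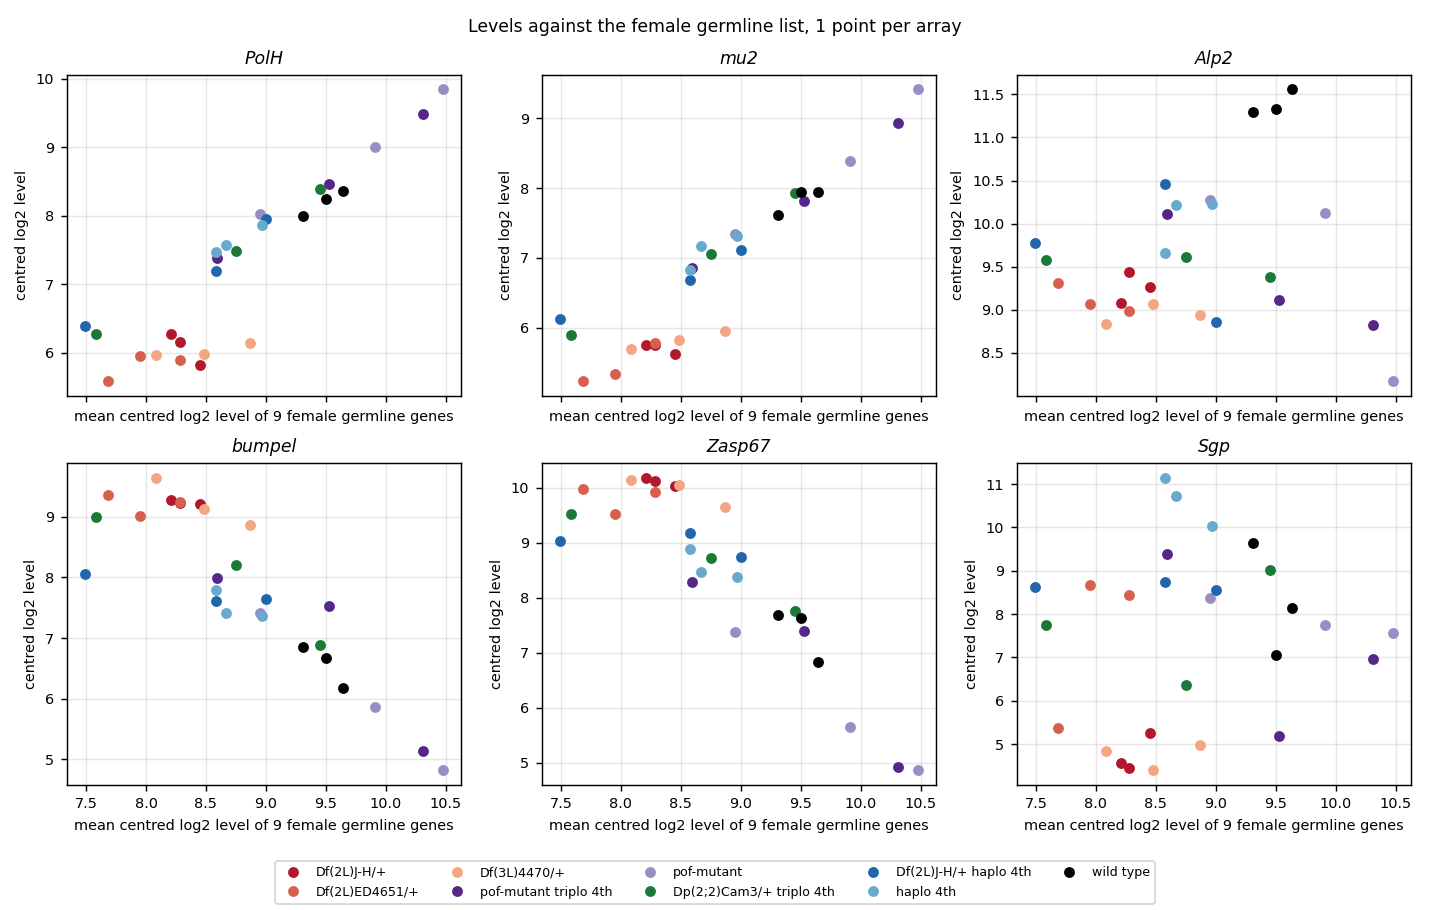
Centred log2 level of PolH, mu2, Alp2, bumpel, Zasp67 and Sgp (y axes) on each array against the mean centred log2 level of 9 female germline genes (x axes), coloured by group. PolH and mu2 climb and bumpel and Zasp67 descend along the axis, while wild type stands apart at the top for Alp2.

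With this germline level as a covariate in the fit, chosen after seeing the data, the differences of the crosses from wild type shrank for 6 genes. In Df(2L)J-H/+ slow stood at 1.52, bumpel at 1.33, PLCXD at 1.57 and Zasp67 at 1.42 above wild type, and PolH at -0.89 and mu2 at -0.93. In Df(3L)4470/+ the same genes stood at 1.70, 1.49, 1.27, 1.45, -1.11 and -0.99. In Df(2L)ED4651/+, the cross with the lowest germline level, they stood at 0.41 (SE 0.77), 0.91 (SE 0.39), 0.63 (SE 0.45), 0.73 (SE 0.45), -0.81 (SE 0.20) and -0.84 (SE 0.20). Alp2 did not shrink, with -2.71, -3.02 and -2.95 in Df(2L)J-H/+, then Df(2L)ED4651/+ and then Df(3L)4470/+, and neither did Sgp, with -3.80, -1.15 and -3.77. The F over the 5 groups called 0 of the 8 genes with the covariate, beside 12.7% of all probe sets. The crosses differ from wild type in germline level as groups, so that the covariate and the cross cannot be fully told apart.

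Other tissue lists moved as well, and their part in the results was not tested. A list of 12 muscle genes, 8 of them measured, averaged between 13.59 and 13.82 on the arrays of the crosses against 12.88 to 13.15 in wild type, without overlap, and 10.22 to 13.19 in pof-mutant. The glial list, of which 6 of 7 genes were measured, ran from 8.62 to 8.99 in the crosses and from 8.24 to 8.65 in wild type, with overlap. The neuron list ran from 7.32 to 7.91 in the crosses and from 6.83 to 7.56 in wild type. Eggshell genes, 10 of 12 measured, were at 5.54 to 7.22 in the crosses and 7.22 to 11.10 in wild type, while yolk protein genes were at 11.36 to 13.36 and 13.38 to 13.43. The gut list, 4 of 5 measured, ran from 10.50 to 11.72 in the crosses and 11.45 to 11.85 in wild type.

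Genes related to the 8 by family or process were read in the same fit, from lists that do not hold the 8 genes. Among alkaline phosphatases, of which 11 were measured, Alp8 and Alp4 were lower in all 3 crosses than in wild type. Alp8 differed by -2.05, -1.98 and -1.90 in Df(2L)J-H/+, then Df(2L)ED4651/+ and then Df(3L)4470/+ (limma adjusted p = 0.0006609, 0.0006916 and 0.001216) and Alp4, an alkaline phosphatase known from Malpighian tubules and brain, by -1.51, -1.35 and -1.58 (0.007554, 0.01136 and 0.005532). Alp8 is the next measured gene after Alp2 in gene order. Like Alp2 it had its highest mean in wild type, with means of 4.10 to 4.99 in the 8 other groups against 6.30 ± 1.03 in wild type (SD, n = 3), although the lowest wild type array, at 5.11, lay under the highest array labelled pof-mutant, at 5.47. Alp4 had means of 9.33 to 9.56 in the crosses, 9.63 to 10.62 in the other 5 groups and 10.91 ± 0.45 in wild type. Phosphatases called higher numbered 3 in Df(2L)J-H/+, 3 in Df(2L)ED4651/+ arrays and 2 in Df(3L)4470/+, of 11, where 31.7%, 36.6% and 33.8% of all probe sets were called higher. Of these Alp9 alone held without centring, in Df(2L)J-H/+, where it stood at 1.78 (limma adjusted p = 0.01142) and without centring at 1.54 (0.0365). Its call in Df(2L)ED4651/+, at 1.59 (adjusted p = 0.01669 by limma), ended at 0.0576 without centring. Outside the crosses, Alp5 was lower in Dp(2;2)Cam3/+ triplo 4th than in haplo 4th, at a difference of -1.46 (SE 0.36, adjusted p = 0.04998 by limma). It was the 1 of 11 called there, where 0.623% of all probe sets were called lower.

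Of 12 measured sodium-solute symporters, 2 lay above and 1 below wild type without overlap in all 3 crosses, against 41.2% and 10.1% of all probe sets. The number called higher by limma was 2, 1 and 1 in Df(2L)J-H/+, then Df(2L)ED4651/+ and then Df(3L)4470/+, where 31.7%, 36.6% and 33.8% of all probe sets were called higher. The only symporter called higher in each of the 3 was rumpel. It differed by 1.62, 1.55 and 1.31 (limma adjusted p = 0.004083, 0.004246 and 0.01211) in Df(2L)J-H/+, then Df(2L)ED4651/+ and then Df(3L)4470/+, the last ending at an adjusted p of 0.0513 without centring. Its means were 6.95 to 7.26 in the crosses, 6.90 to 7.35 in Dp(2;2)Cam3/+ triplo 4th, Df(2L)J-H/+ haplo 4th and haplo 4th and 5.64 ± 0.09 in wild type (SD, n = 3), so that rumpel was about as high in those 3 groups without an Oregon R parent, while the arrays labelled pof-mutant triplo 4th and pof-mutant averaged 5.91 and 5.53. In Df(2L)J-H/+ Smvt, a vitamin transporter of this family, differed by -1.06 (limma adjusted p = 0.01888). CG5687 differed by 1.02 there (limma adjusted p = 0.02059, and 0.0947 without centring). CG31262 differed by -1.54 in Df(2L)ED4651/+ and CG2187 by -0.84 in Df(3L)4470/+ (limma adjusted p = 0.009462 and 0.04391). Each cross thus had 1 symporter called lower, where 4.98%, 6.12% and 4.28% of all probe sets were.

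Of 9 measured genes of Slit signalling and of tendon and muscle attachment, 2 were called higher in all 3 crosses. They were sli, which encodes Slit itself, and Lrt, a leucine-rich repeat gene of tendon cells. Of all probe sets, 31.7%, 36.6% and 33.8% were called higher, with the crosses ordered as for the differences below. Without overlap in all 3 crosses, 2 of the 9 lay above and 2 below wild type, against 41.2% and 10.1% of all probe sets. The differences were 0.97, 0.71 and 0.75 for sli (limma adjusted p = 0.0006503, 0.004203 and 0.003583) and 1.00, 0.73 and 0.71 for Lrt (0.001908, 0.009812 and 0.01244) in Df(2L)J-H/+, then Df(2L)ED4651/+ and then Df(3L)4470/+. The sli level was low throughout, at 5.11 to 5.37 in the crosses and 4.40 ± 0.04 in wild type, and without centring its calls held at 0.73, 0.46 and 0.50 (adjusted p = 0.00159, 0.0239 and 0.0199). Lrt held without centring only in Df(2L)J-H/+, at 0.76 (adjusted p = 0.00553), with 0.0509 and 0.0713 in Df(2L)ED4651/+ and Df(3L)4470/+. The integrin gene mew differed by -0.88 in Df(2L)J-H/+ (limma adjusted p = 0.01771).

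Among other genes of translesion synthesis and the damage response, calls were lower ones alone, and most of them fell in Df(2L)ED4651/+. That cross also had the lowest germline level and the largest share of all probe sets called lower. The part of the germline level in these calls was not tested. Of 20 measured, 15 lay below wild type without overlap in all 3 crosses and 0 above, against 10.1% of all probe sets below and 41.2% above (19.9% and 24.4% of those with a mean above 6). The number called lower by limma was 1, 9 and 1 in Df(2L)J-H/+, then Df(2L)ED4651/+ and then Df(3L)4470/+, with medians of -0.65, -0.72 and -0.54. Of all probe sets 4.98%, 6.12% and 4.28% were called lower in the same order (7.04%, 9.11% and 5.41% of those with a mean above 6). The checkpoint kinase gene lok differed by -2.03 in Df(2L)J-H/+ and -2.26 in Df(2L)ED4651/+ (limma adjusted p = 0.02662 and 0.0141). The gene rad50, of the complex that holds broken DNA ends, differed by -1.21 in Df(2L)ED4651/+ arrays and -1.03 in Df(3L)4470/+ (limma adjusted p = 0.01957 and 0.04381). The chromosome end gene HipHop differed by -1.62, cav by -1.955 and grp by -1.373 in Df(2L)ED4651/+ (limma adjusted p = 0.03055, 0.03058 and 0.03357). Over the 5 other groups 10 of the 20 were called by the F, beside 25.5% of all probe sets. The lok gene had means of 8.11 to 8.76 in the crosses, 9.17 to 11.01 in the other 5 groups and 10.37 ± 0.21 in wild type, highest in the group labelled pof-mutant. This group also had the highest mean germline level, whose part in the lok level was not tested.

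Of 12 measured Z-disc genes, 5 lay above and 0 below wild type without overlap in all 3 crosses, against 41.2% and 10.1% of all probe sets (24.4% and 19.9% of those with a mean above 6). Of these 12 limma called 0, 0 and 1 in Df(2L)J-H/+, then Df(2L)ED4651/+ and then Df(3L)4470/+, with medians of 0.31, 0.32 and 0.40, and the 1, Zasp66, ended without centring. In the same order 31.7%, 36.6% and 33.8% of all probe sets were called higher (14.2%, 15.7% and 12% of those with a mean above 6). Of 2 measured phospholipase C genes, sl, a phospholipase C gamma, differed by -0.56, -0.75 and -0.63 in the crosses (adjusted p = 0.02491, 0.004648 and 0.01331 by limma), opposite in sign to PLCXD. Of all probe sets 4.98%, 6.12% and 4.28% were called lower there.

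Zasp67, slow, PolH and mu2 lie on 3L, PLCXD and Sgp on 2L, Alp2 on 2R and bumpel on 3R, so that all 4 large autosomal arms hold at least 1 of the 8 genes. Whether 3L holds more of them than its share of genes was not tested. The 10 measured neighbours of each gene, 5 on each side in gene order, had median differences from wild type of -0.21 to 0.41 in the crosses. Among all these neighbours, named after their values were seen, Alp8 beside Alp2 was the lowest, and Glt, 4 genes from Sgp, the highest, at 1.71, 2.07 and 1.92 in Df(2L)J-H/+, then Df(2L)ED4651/+ and then Df(3L)4470/+, opposite in sign to Sgp. On the other side of Sgp, 5 genes away, Bace had -1.51, -0.75 and -1.76, smallest in Df(2L)ED4651/+ as for Sgp. SLC22A, next to PolH, stood at 1.51, 1.24 and 1.27.

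**Figure D4:**
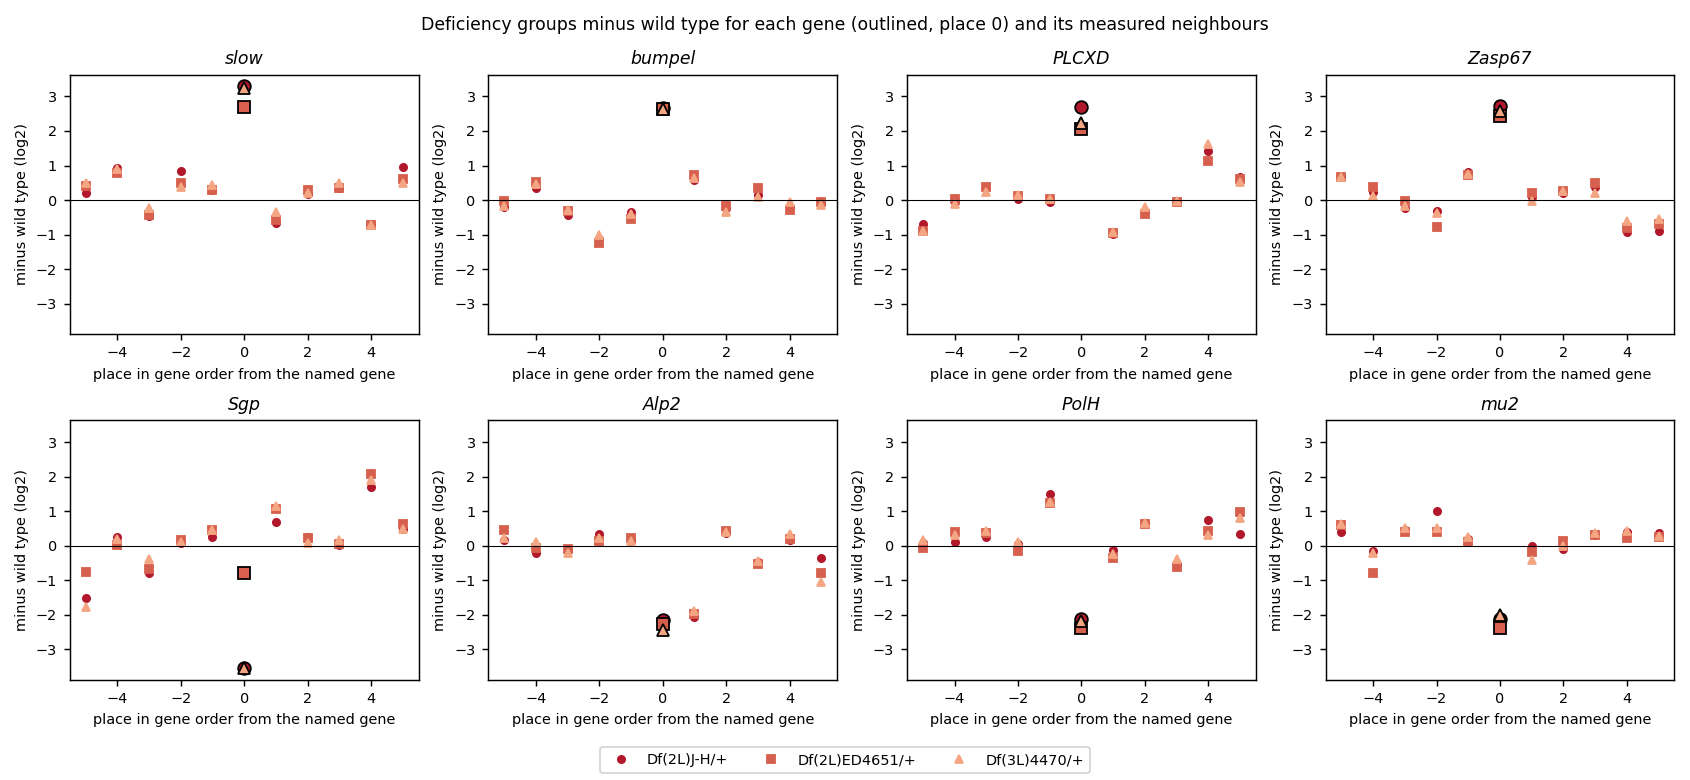
Deficiency group mean minus wild type mean (y axes, log2) for each of the 8 genes, outlined at place 0, and its measured neighbours up to 5 places away in gene order (x axes), with a marker for each of the 3 deficiency groups. In most panels the named gene stands alone, and in the Alp2 panel the next gene, Alp8, lies at -2.05, -1.98 and -1.90.

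Across the 27 arrays, which share groups and the germline level, the 8 genes fell into a block of 6 and 2 that stood apart. PolH and mu2 had a Pearson r of 0.99, slow and PLCXD 0.98, bumpel and Zasp67 0.96, and PolH and mu2 had -0.87 to -0.97 with the 4 higher genes. Alp2 had 0.43 with Sgp, 0.22 with PolH and 0.23 with mu2. The 27 arrays include those of the crosses and wild type by which the genes were chosen, so the choice fixes part of these values. They describe arrays of 9 groups and are no measure of replicate agreement.

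The genes most like each member over the 27 arrays were as follows. For PolH and mu2 each was the other's nearest gene at r = 0.991, followed by Su(var)2-HP2, a partner of the heterochromatin protein HP1, at 0.978 for PolH and Srrm234 at 0.981 for mu2. Nearest to slow were e (ebony, an enzyme of pigment and dopamine metabolism) at 0.986 and CG13606 at 0.981. Nearest to bumpel were Pfk, phosphofructokinase of glycolysis, at 0.988 and CG8128 at 0.984, and nearest to Zasp67 were ScsbetaA, of the citric acid cycle, at 0.987 and NP15.6, of respiratory complex I, at 0.984. PLCXD was nearest to CG6429 at 0.985 and CG6675 at 0.984. Ranking by likeness to genes chosen for a shift favours genes with the same shift, so levels of the ranked genes are given as a description only. The gene e had means of 11.50 to 12.09 in the crosses and 8.85 in wild type, and Pfk 12.41 to 12.50 and 10.86. Alp2 and Sgp had no match as near. Alp2 was nearest to NT5E-2, an ecto-nucleotidase gene, at 0.874 and Picot, a phosphate transporter gene, at 0.870, and Sgp to CG40486 at 0.853 and CG9459 at 0.823. With the mean profile of slow, bumpel, PLCXD and Zasp67 the nearest were alpha-Man-Ia, a mannosidase of the Golgi, at 0.994, CG5646 at 0.988, CG6429 at 0.985, Mnr at 0.979 and CG3630 at 0.977, and with that of Sgp, Alp2, PolH and mu2 whe at 0.912, pdgy at 0.892, CG8675 at 0.891, Muc11A at 0.884 and Rme-8 at 0.872. The gene alpha-Man-Ia had means of 9.99 to 10.38 in the crosses and 7.17 in wild type.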

How the data were processed

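The authors hybridized RNA of 3 biological replicates per group to Affymetrix arrays and made the deposited log2 values by robust multi-array analysis (RMA); whether all 27 arrays were normalized together is not given in the sources used here. Of 18952 probe sets, 13646 had 1 gene symbol in the platform annotation, 402 several and 4904 none; 13634 of the first matched a table of RefSeq genes, which gave names, arms and gene order only (its assembly is Release 6 plus ISO1 MT). Arrays were centred as in the study. limma 3.58.1 in R 4.3.3 fitted 1 mean per group over 27 arrays and all probe sets, with Benjamini-Hochberg adjustment, called under 0.05. The fit was tested on simulated data. Runs of changed copy number were read from levels along gene order.

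The 8 genes and the gene lists were chosen with earlier results of these data known. Named are the 8 genes, the 2 genes most correlated with each and the 5 with each mean profile, and list members and neighbours called in a contrast, at most 4 each. The number of arrays limits the precision, and p-values measure the spread between these replicates, which the labels call biological. Whether arrays of the same replicate number are paired is not given by the labels. Deviations of pof-mutant triplo 4th and pof-mutant arrays of the same number had r of 0.11, 0.84 and 0.49 over probe sets with a mean above 6. Arrays of the same number in the other 3 contrasts held at least 1 correlation under 0.1. Replicates 1 of pof-mutant triplo 4th and Dp(2;2)Cam3/+ triplo 4th, however, had 0.79, so the correlations do not settle the pairing. Alternatives were other centring, filters, fits, a replicate block and single arrays left out.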

Additional observations from a re-analysis of the deposited data

How the results depend on the processing

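The differences of the 8 genes between each cross and wild type kept their sign without centring and with centring on the median, and 7 of 8 genes stood off wild type in all 3 crosses also without centring, with centring on the median and with any single array left out. The count of genes called by the F over 5 groups was 4, and 0 with the 15 arrays alone, 0 with the germline covariate, 7 with array weights, 1 without replicate 2 of both pof-mutant and pof-mutant triplo 4th, and 1 to 6 with single arrays left out. With array weights the 4 contrasts called 1 (Df(2L)J-H/+ haplo 4th over haplo 4th), 2 (Dp(2;2)Cam3/+ triplo 4th against haplo 4th), 4 (pof-mutant triplo 4th against pof-mutant) and 4 (pof-mutant triplo 4th against Dp(2;2)Cam3/+ triplo 4th) of the 8 genes; the weights were estimated gene by gene, a method taken after seeing that the default did not converge, and called 91.3% of all probe sets by the F, so these calls were not used. Single arrays left out gave 0 to 1 calls in pof-mutant triplo 4th against Dp(2;2)Cam3/+ triplo 4th and 0 in the other contrasts. The replicate block changed the call of mu2 in the F (adjusted p = 0.0545) and no other call on the 8 genes, and moved no count of all probe sets with more than 2 calls by over 1.5 times. Over all probe sets the counts called were 150, 245, 2, 389 and 4838 in the 4 contrasts and the F, and 33, 67, 0, 108 and 978 with the 15 arrays alone, 442, 807, 16, 475 and 2413 with the germline covariate and 226 in the first contrast without centring. The share of all probe sets apart from wild type in all 3 crosses turned round with the centring, from an excess of higher ones (41.2% higher, 10.1% lower) to an excess of lower ones without it (14.7% higher, 18.3% lower). Without centring the differences from wild type in the 3 crosses were -2.38, -2.52 and -2.70 for Alp2, -2.35, -2.64 and -2.42 for PolH and -2.37, -2.64 and -2.27 for mu2. The germline covariate and the joint removal of both replicates 2 were added after seeing the data. Levels near 6 or below, as of PolH, mu2 and Sgp in the crosses, are where the arrays limit the size of a difference.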
